A study of Drosophila melanogaster with 2 samples.

Results

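The genes described here are 8 genes of Drosophila melanogaster that make or remove ecdysteroids, the steroid hormones of insect moulting and metamorphosis: nvd, spo, spok, phm, dib, sad, shd and Cyp18a1. They were taken by name out of 13945 protein-coding genes on the chromosome arms. Of these names, 7 were symbols of the Ensembl annotation. The name phm was not, and it was matched to the symbol phtm, the gene that RefSeq lists under both phm and Cyp306a1 (the symbol Phm, with a capital, belongs to another gene). For each gene, regions listed from chromatin immunoprecipitation and sequencing (ChIP-seq) were sought in the gene body and within 2 kb upstream of its start.

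The 2 samples were biological replicates of a single group. It consisted of whole white prepupae of both sexes from a transgenic strain that stably expressed espinas (esn), a LIM-domain relative of Prickle, carrying GFP at its C-terminus, and anti-GFP antibody was used to precipitate sonicated chromatin. The labels give no age in hours, no promoter for the transgene and no number of animals. No untagged animals were analysed here, so recovery that does not depend on espinas cannot be told apart from binding. The regions came as 4 lists on the dm6 genome: 1 from each replicate and 1 from both pooled, each of 30000 regions, and a shorter list of 10936 regions thresholded on the irreproducible discovery rate (IDR). Sorted by signal, the top 10936 pooled regions were the same regions as this IDR list. The pooled list is labelled by its depositors as peaks and background, used as input for the IDR step. The replicate lists have the same length, so weak regions in any of the longer lists may be background. The lists hold no read counts, so depth is unknown. They hold no expression values, so the developmental stage and tissue could not be checked against marker genes. Each region carries a signal value assigned by the authors, in a unit no source explains and not on 1 common scale across the lists, and a summit, its position of highest signal. A rank below is the place of a region by signal within its own list, with 1 the strongest.

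Ecdysteroids are made from dietary sterol in the prothoracic gland by a chain of enzymes, most of them cytochrome P450 enzymes known in the fly as the Halloween group. nvd encodes the oxygenase of the first step, spo and spok encode closely related P450 enzymes of the next steps, which act at different stages of life, and phm, dib and sad encode the hydroxylases that finish ecdysone. Ecdysone leaves the gland and is converted by the enzyme encoded by shd to the active hormone in peripheral tissues such as fat body and gut, and Cyp18a1 encodes the P450 enzyme that inactivates it. A pulse of the active hormone starts metamorphosis around the white prepupal stage. The libraries came from whole animals, so binding in few cells and weaker binding in many cells cannot be told apart.

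Among the 8 genes, shd held IDR summits, and nvd, spo, spok, phm, dib, sad and Cyp18a1 held none. The share was thus 1 of 8 genes (12.5%), against 45.4% of all protein-coding genes by the same rule, and against 53.4% of those spanning 2 to 8 kb, the length class of 6 of the 8. At promoters, meaning within 500 bases of a transcript start, shd was again the single gene with an IDR summit, against 35.4% of all protein-coding genes. The complete lists also hold weaker regions, some of which may be background. There, 3 of the 8 genes had a summit in the pooled list (61.2% of all protein-coding genes), 4 of 8 in replicate 1 (62.1%) and 2 of 8 in replicate 2 (60.9%). No test of the group was made, since there is 1 group of samples and the genes were chosen with results of these data known.

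The 3 windows of 201 bases centred on the IDR summits upstream of shd are shown because shd alone among these genes had regions that passed the IDR threshold, and the stretch upstream of dib because it came closest to passing among the others. All lie on 3L and are printed from the plus strand of the Release 6 genome, the strand of both genes. The shd windows are, from upstream to downstream, chr3L:14612996-14613196, chr3L:14613707-14613907 and chr3L:14613991-14614191. The dib stretch, chr3L:4062122-4062291, was ended at the start of dib. Capitals mark the letters TATAAA and GAGAG on either strand.
shd, 1362 bases upstream: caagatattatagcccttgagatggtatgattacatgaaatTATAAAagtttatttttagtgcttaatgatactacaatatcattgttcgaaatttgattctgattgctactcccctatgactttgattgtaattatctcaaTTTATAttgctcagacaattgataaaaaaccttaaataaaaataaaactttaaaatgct
shd, 651 bases upstream: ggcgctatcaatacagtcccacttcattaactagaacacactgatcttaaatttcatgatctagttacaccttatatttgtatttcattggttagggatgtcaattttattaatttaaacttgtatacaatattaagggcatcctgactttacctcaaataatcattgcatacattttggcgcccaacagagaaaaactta
shd, 367 bases upstream: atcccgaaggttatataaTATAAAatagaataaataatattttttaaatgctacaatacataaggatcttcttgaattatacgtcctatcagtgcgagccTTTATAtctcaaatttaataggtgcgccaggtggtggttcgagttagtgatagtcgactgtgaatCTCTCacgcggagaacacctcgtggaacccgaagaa
dib, 70 bases upstream: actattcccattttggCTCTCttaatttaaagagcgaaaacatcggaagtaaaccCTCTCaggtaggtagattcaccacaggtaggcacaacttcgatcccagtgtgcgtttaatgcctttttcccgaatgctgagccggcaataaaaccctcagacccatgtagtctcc

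The searched motifs were AGGTCA, a half-site of nuclear receptors, TATCGATA, the DNA replication-related element, GAGAG, bound by GAGA factor, and TATAAA, the TATA sequence, each on both strands. AGGTCA was in none of these 3 shd windows nor in the dib window, against 3.62% of the windows of all 10918 IDR regions on the arms, and TATCGATA was in none of the 4, against 3.80%. TATAAA was in 2 of the 3 shd windows and not in the dib window, against 35.6%. GAGAG was in 1 of the 3 shd windows and occurred at 2 positions in the dib window, against 22.2%. The shd windows had G+C contents of 25.4%, 32.3% and 37.3% from upstream to downstream and the dib window had 45.8%, against a mean of 35.8% over all IDR windows. The upstream-most shd window was thus among the richest in A and T, with 5.18% of IDR windows at or below its G+C content. For the dib window this share was 89.4%. The dib values are for a window of 201 bases, which runs past the end of the printed stretch.

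shd (FBgn0003388, 3L, 14614458 to 14622205, plus strand) held 4 IDR summits, of which 3 lay upstream of its start and 1 in its first intron. From upstream to downstream they lay 1362, 651 and 367 bases before the start and 956 bases after it, at 14613096, 14613807, 14614091 and 14615414. Their signals were 247, 221, 291 and 236 and their ranks in the IDR list 7418, 8294, 6208 and 7774. All 4 signals were below the median of the IDR list on the arms, 328, so within its window shd held several weak regions rather than a strong one. The regions of the second and the third summit overlapped. No other protein-coding gene spanned any of these summits or started within 500 bases of one. By its strongest summit shd ranked 4468 among the 6333 genes with an IDR summit, whose median strongest signal was 444. Its number of summits was high, with 4 or more held by 5.11% of protein-coding genes of all lengths, those without a summit included. Of the 6333 genes with an IDR summit, 712 had 4 or more. The density over its window was 0.410 per kb, against a median of 0.255 over genes with an IDR summit. Of those 6333 genes, 1051 were denser.

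The replicates gave the regions of shd different weights. The summit 1362 bases upstream had a signal of 194 and rank 5863 in replicate 1, and a signal of 49.8 and rank 14053 in replicate 2. The promoter summit 367 bases upstream went the other way, with a signal of 104 and rank 10934 in replicate 1 and a signal of 187 and rank 3362 in replicate 2. The intronic summit had a signal of 121 in each replicate, with rank 9540 in replicate 1 and rank 5770 in replicate 2. At the summit 651 bases upstream, replicate 1 had a signal of 86.6 and rank 12856, and replicate 2 had no summit within 250 bases. The nearest summit of replicate 2, 259 bases away, was the one already matched to the promoter summit. Only the promoter and the intronic summit were therefore among the strongest 10936 regions of both replicates, the promoter summit only just so in replicate 1, at rank 10934.

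The first 2 of these rank gaps were larger than most of those at regions of like signal. The ranks of the summit 1362 bases upstream were 8190 places apart and those of the promoter summit 7572 places. Over the 2046 IDR regions with a pooled signal in the range of shd and a summit in both replicate lists, the median gap was 2149 places. As large a gap was found for 5.52% and 6.26% of these regions, and for the intronic summit, at 3770 places, the figure was 26.2%. With 1 value per replicate, these differences have no test.

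**Figure D1:**
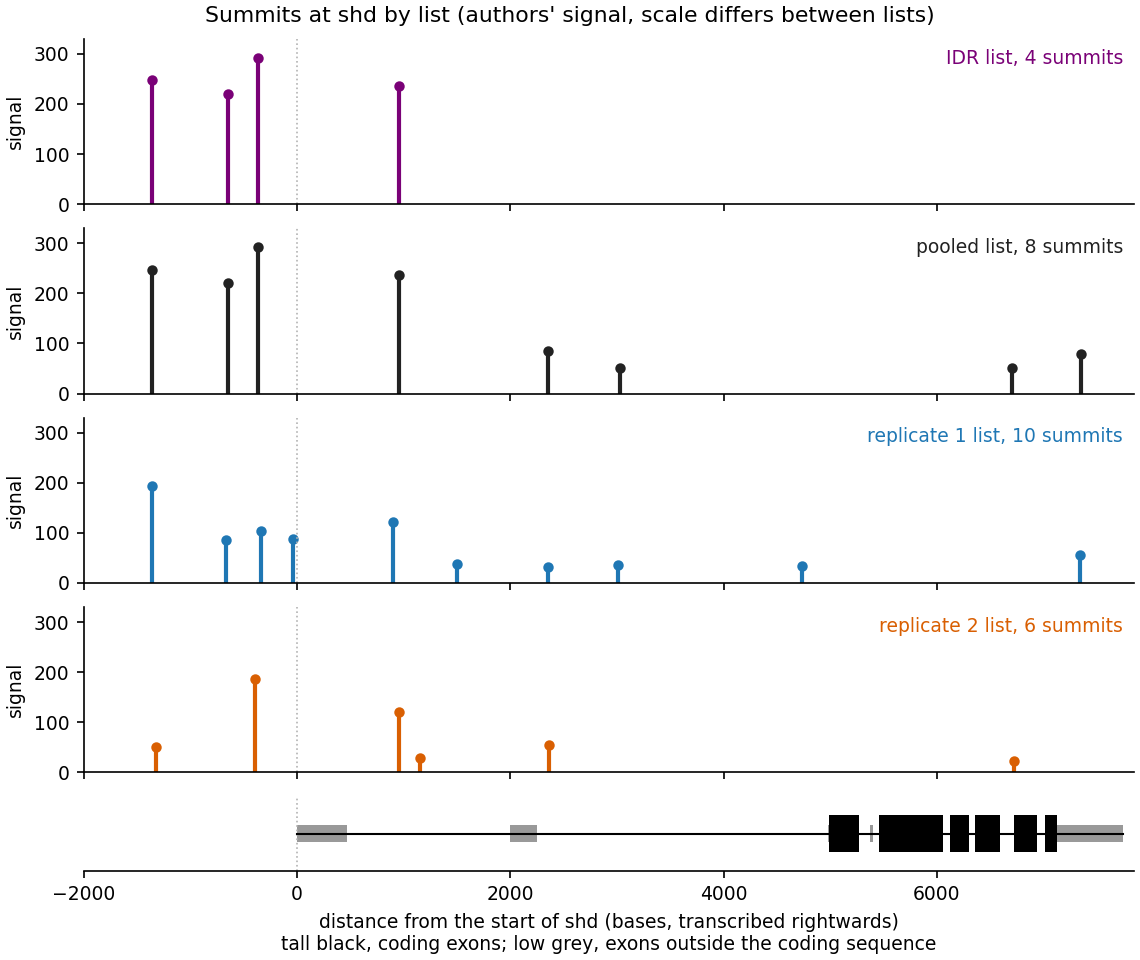
Summits at shd in the IDR, pooled and replicate lists, by distance in bases from the start of the gene (horizontal) and by the authors' signal value (vertical, scale not common to the lists). The 4 IDR summits lie from 1362 bases upstream to 956 bases downstream of the start, and the tallest summit is the upstream-most one in replicate 1 and the promoter one in replicate 2.

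Below the IDR threshold the pooled list added 4 summits across the rest of shd, 3 in introns with signals of 84.1, 50.7 and 51.7 and 1 in the 3′ UTR with a signal of 79.6. Replicate 1 had 10 summits over the whole window and replicate 2 had 6. Replicate 1 alone had a summit 38 bases upstream of the start (signal 87.1, rank 12779). Further IDR summits lay past both ends of the window. At 2726, 2936 and 3775 bases upstream lay 3 further IDR summits, with signals of 336, 344 and 390. Each was higher than any within the window and above the IDR list median of 328. Their ranks were 13307, 13472 and 7139 in replicate 1, and 4622, 1740 and 2526 in replicate 2, so all 3 were placed higher in replicate 2. No annotated protein-coding gene spans them, and which gene they belong to was not tested. At the other end, an IDR summit (signal 279) lay 396 bases past the end of shd and 195 bases from the start of CG9628.

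dib (FBgn0000449, 3L, 4062292 to 4064551, plus strand), one of the gland hydroxylases, held a single summit that missed the threshold. In the pooled list it lay 70 bases upstream of the start with a signal of 147 and rank 12027, where the weakest IDR region had a signal of 164. Both replicate lists had it, with a signal of 65.7 and rank 16203 in replicate 1 and a signal of 68.1 and rank 10607 in replicate 2, at most 21 bases from the pooled summit. It was the single place outside shd at which both replicates had a summit, and it was among the strongest 10936 regions of replicate 2 but not of replicate 1. The neighbour wit, a receptor of BMP signalling whose 3′ end overlaps that of dib, held a strong IDR summit (signal 2559, rank 153) 1111 bases from its own start, 6055 bases beyond the end of dib.

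phm and Cyp18a1 lie tail to tail on the X, and each had a weak summit at its start that was absent from replicate 2. Regions this weak may be background. Cyp18a1 (FBgn0010383, 18688538 to 18693042, minus strand) had a summit in its 5′ UTR, 49 bases from the nearest of its transcript starts in the pooled list (signal 58.7, rank 24086). Replicate 1 had it at a signal of 43.8 and rank 22530, and the nearest summit of replicate 2 was 13774 bases away. phm (FBgn0004959, 18685766 to 18688433, plus strand) had a summit in replicate 1 only, 36 bases upstream of its start (signal 35.1, rank 26667), and none in the pooled list. The IDR summit nearest to both genes lay 6728 bases upstream of phm, with a signal of 230.

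sad and spo held no summit in any of the 4 lists, though both lie among genes that did. Around sad (FBgn0003312, 3R, 11877235 to 11879754, plus strand), the hydroxylase of the last gland step, 61 of the 142 other protein-coding genes within 500 kb had an IDR summit. The nearest IDR summit to sad lay between genes, 4373 bases upstream of its start, with a signal of 614 and ranks of 3886 in replicate 1 and 1505 in replicate 2. The start of CG6959 was nearer to that summit, at 3402 bases. Around spo (FBgn0003486, 3L, 5590083 to 5592571, minus strand), 41 of 101 other genes had one, and the nearest, with a signal of 622, lay 124 bases from the start of l(3)psg2.

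nvd and spok also held no summit in any list, and few summits and few other genes lay around them. Both lie in pericentric heterochromatin, the repeat-rich sequence next to the centromere. nvd (FBgn0287185, 3L, 24324866 to 24401655, plus strand) had 0 IDR summits and 4 pooled summits within 500 kb of its start. spok (FBgn0086917, 3R, 3322810 to 3354486, plus strand) had 0 IDR summits and 1 pooled summit there. Around the other 6 genes the counts were 68 to 126 IDR summits, beside 81.6 per Mb over all arms. Those 6 genes had 85 to 144 other protein-coding genes within 500 kb. None of the 5 other protein-coding genes within 500 kb of nvd, nor of the 5 near spok, had an IDR summit. In the pooled list 3 of the 5 near nvd and 1 of the 5 near spok had one, against 61.2% of all protein-coding genes. Repeats masked in lower case in the RefSeq sequence made up 43.4% of the nvd window and 51.6% of the spok window, against 6.41% to 17.2% at the other 6 genes and 20.1% of the arms. The parts of repeats and of the number of nearby genes in the absence of summits were not tested.

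**Figure D2:**
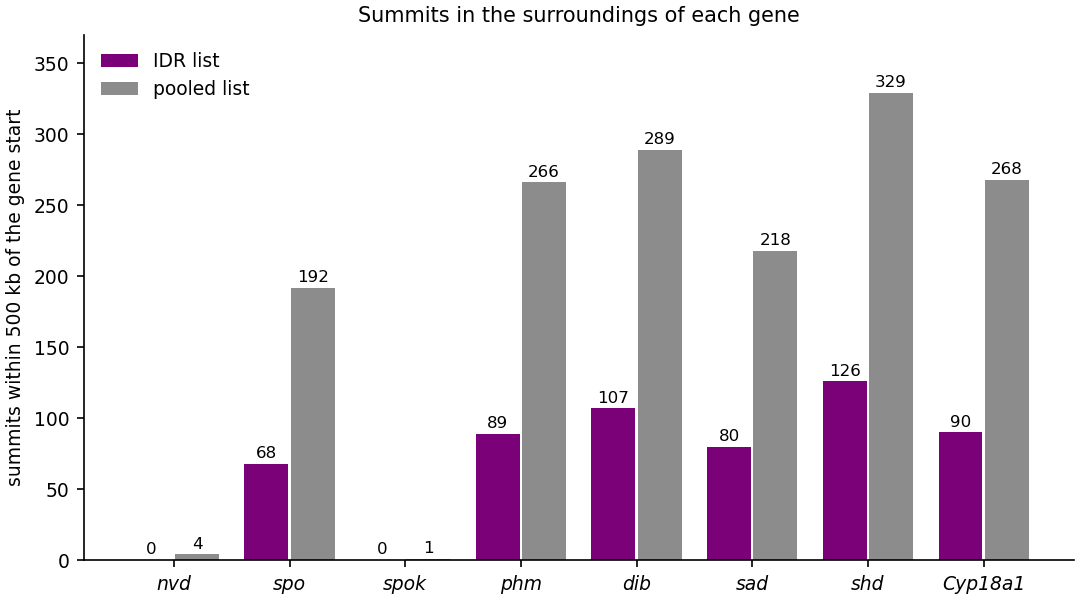
Number of IDR and pooled summits (vertical) within 500 kb of the start of each of the 8 genes (horizontal). nvd and spok have 0 IDR summits around them, and the other 6 genes have 68 to 126.

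**Figure D3:**
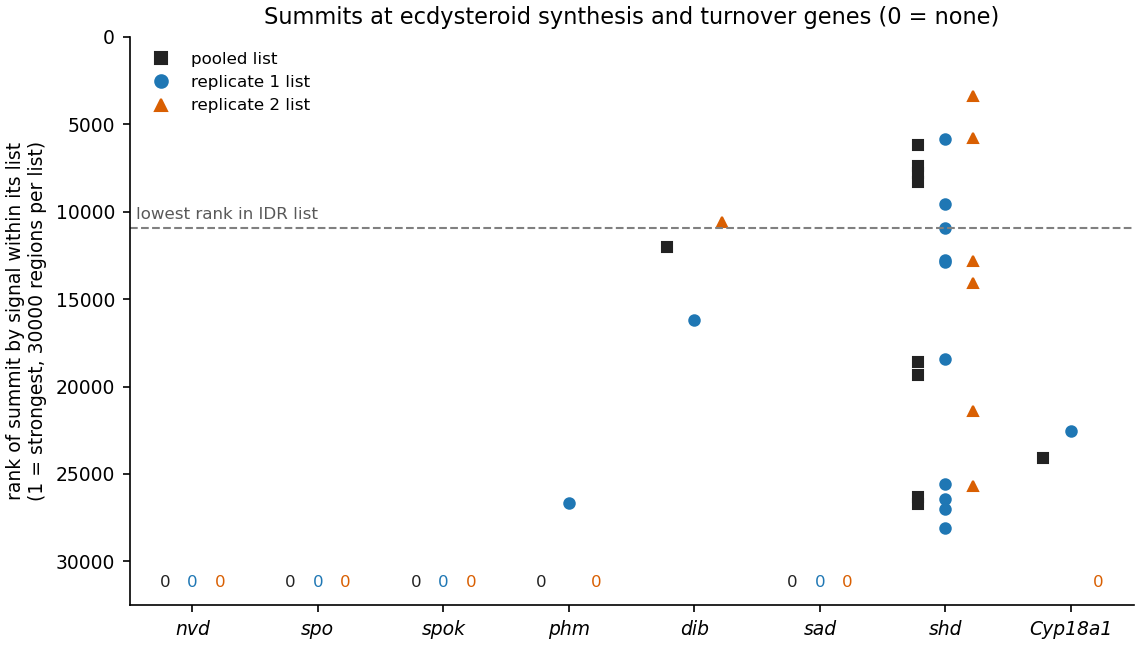
Rank by signal (vertical, 1 the strongest) of every summit in the body or within 2 kb upstream of the 8 genes, in the pooled and replicate lists, with a 0 where a list has none. The dashed line is the lowest pooled rank kept in the IDR list, 10936. Pooled summits above it occur at shd alone, and dib follows at rank 12027.

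Other genes of the ecdysteroid pathway, listed by their roles, included several with strong IDR summits. Of 22 such genes, 12 (54.5%) had one, each also at a promoter, against 45.4% of all protein-coding genes. The numbers in parentheses in the next sentences are the signal of each gene's strongest IDR summit, which need not be the one at a promoter. For Oatp74D, Hr4, ftz-f1, mld and EcR it lay in an intron, 9970 to 44649 bases from the gene start. For usp it also lay in an intron, 855 bases from the gene start, and for Atet 811 bases upstream. Among 11 genes of sterol supply, further synthesis, transport and turnover, 6 had one: sro (210), a dehydrogenase of the same gland pathway, Npc1a (257), which moves sterols within cells, ecd (197), which ecdysone production requires, the hormone importer Oatp74D (1056), and the ABC transporters Atet (767) and E23 (2932). The transferase gene GstE14, the P450 gene Cyp6t3, the sterol carrier gene Start1, the adrenodoxin reductase gene dare and the ecdysone oxidase gene Eo had none. Among 7 regulators of the synthesis genes, Hr4 (3192), ftz-f1 (788), mld (389) and vvl (175) had one, and ouib, nom and kni had none. Hr4 and ftz-f1 encode nuclear receptors, vvl a POU-domain factor, and mld and ouib zinc-finger factors that act on synthesis genes. Neither Ptth, the brain peptide that starts synthesis, nor its receptor gene tor had one. Both subunits of the hormone receptor did, EcR (760) and usp (687). Span differs between these genes, from 1186 bases for Ptth to 81215 bases for EcR, and its part in the counts was not tested.

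Most of the 8 genes encode P450 enzymes, and the other members of that family also seldom held IDR summits. An IDR summit was found at 1 of the 8 genes (12.5%), beside 11 of 82 other genes with a cytochrome P450 symbol (13.4%), of which 9 had one at a promoter. The strongest were at Cyp6u1 (signal 2131, rank 248), Cyp310a1 (1086, rank 1045) and Cyp6v1 (1086, rank 1046). The strongest summit of shd had a signal of 291, against a median of 484 over these 11 genes. In the pooled list 26 of the 82 had a summit, in replicate 1 it was 28 and in replicate 2 it was 24. Cyp6t3, which had none, is counted both here and among the other pathway genes.

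**Figure D4:**
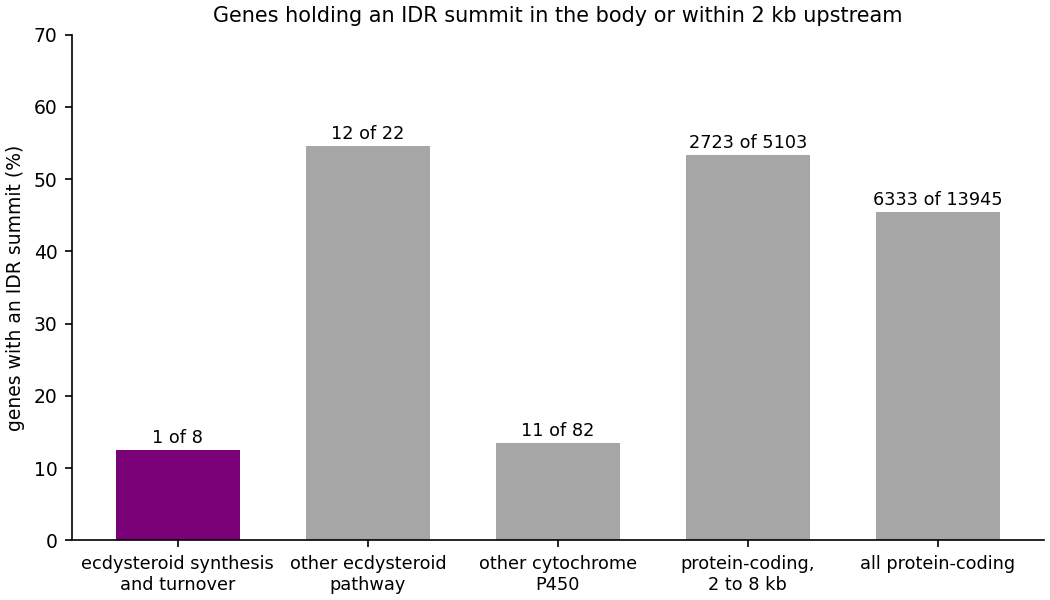
Percentage of genes with an IDR summit in the body or within 2 kb upstream (vertical) for the 8 ecdysteroid synthesis and turnover genes, the other ecdysteroid pathway genes, the other P450 genes, protein-coding genes spanning 2 to 8 kb and all protein-coding genes. The first bar stands at 1 of 8 and the P450 bar at 11 of 82, below the 45.4% of all protein-coding genes. Cyp6t3 is counted in both the pathway and the P450 bar.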

How the data were processed

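ChIP-seq regions of 2 replicates were taken as the authors deposited them, as narrowPeak lists on dm6. Per the deposited file descriptions, the replicate lists and the pooled list were each made against a control, and the IDR list was derived from these 3. No source used here names the peak caller or its settings. The signal value of each region is the authors' and its scale is not stated. The dm3 lists and the control libraries were not used here.

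Summits were read as region start plus offset, 1-based. The gene annotation was BDGP6.54 of Ensembl release 115. Bases were read from RefSeq's copy of the Release 6 genome, which shares its coordinates with dm6. Analysis was limited to the 6 chromosome arms. A summit belonged to a gene when it lay in the gene body or within 2000 bases upstream of its start. Summits of 2 lists were taken as one place within 250 bases. Motifs were sought within 100 bases of a summit. The sequence at 1 of the summits is not reported here. Of the words of the pathway list, nobo and sean were matched to GstE14 and nom through RefSeq synonyms, and EcI to Oatp74D, counted once.

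All values are descriptions, with no test. The labels do not say whether the replicates were raised separately, so their differences may be technical. The 8 genes, the lists and the rules were chosen with earlier results of these data known. The genes named are the 8, genes that start within 500 bases of or span their summits (there were none), the pathway list and the 3 other P450 genes with the strongest IDR summit. P450 genes were taken by symbol, as Cyp and a digit. That also took 2 cyclophilin genes, Cyp1 and Cyp40, which were left out after the values were seen (12 of 84 had an IDR summit with them). wit, l(3)psg2, CG9628 and CG6959 were named after their values were seen. The counting was checked on artificial summits placed at known genes. Python 3.11.15, numpy 2.4.6, pandas 2.3.3 and matplotlib 3.10.9 were used.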

Additional observations from a re-analysis of the deposited data

How the results depend on the processing

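The number of the 8 genes with a summit stayed at 1, shd, with the gene body alone, with 500 bases upstream, with any overlap of the region, with summits at one position counted once, with the regions of both replicates only and without replicate 2. It was 2 with 5 kb upstream (shd and sad), 0 in the strongest 5468 regions of the IDR list and 3 in all pooled regions (shd, dib and Cyp18a1). Leaving out a replicate gave 1 to 2 genes, with dib added when the strongest 10936 regions of replicate 2 alone were used. The number of summits at the 8 genes, 4, was 1 in the gene body alone, 2 with 500 bases upstream, 8 with 5 kb upstream, 0 in the strongest 5468 regions, 10 in all pooled regions and 2 when regions had to be among the strongest of both replicates. It was 3 with either replicate alone. The number with a promoter summit, 1, was 0 at 250 bases, 0 in the strongest 5468 regions and 1 to 2 with a replicate left out. The share of all protein-coding genes with a summit, 45.4%, was 19.8% for the gene body alone and 29.3% in the strongest 5468 regions, and 39.7% to 61.2% otherwise. The class of genes spanning 2 to 8 kb was chosen after seeing the data. The causes of these changes were not tested, beyond the smaller or larger windows and lists themselves. No paired analysis was possible because the series has 1 group. Depth is unknown, so a missing summit does not show that binding was absent.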
